A study of Mus musculus with 4 samples.

Results

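Sterol and fatty acid synthesis was followed as 34 named genes, of which 33 were among the 10716 genes of the deposited count table. They were chosen by name as 17 measured enzymes of the sterol branch, 6 measured genes of sterol sensing and transfer, and 10 measured genes of the fatty acid branch. Hmgcs1, which codes for HMG-CoA synthase, was not analysed here. The libraries are RNA-seq of erythroid cells from fetal livers of C57BL/6 mice, taken at embryonic day 14.5. The cells carried YFP from the R26eYFP reporter, and the flow cytometry sort for YFP is described for all 4 libraries. The 2 libraries labelled knockout (KO, replicates 1 and 2) have the genotype entry Epor-Adar / +, with Cre recombinase under the erythropoietin receptor gene acting on Adar, which codes for the editing enzyme ADAR1. That entry does not state if deletion took 1 Adar allele or both, and other alleles of these embryos are not given in the sources used here. The 2 control libraries (WT, replicates 3 and 8) have the genotype entry wild type, which does not say how a wild type cell came to carry YFP. Whether a library came from 1 embryo or a pool is not stated, so the p-values below measure only the spread between these libraries.

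Cells make cholesterol from acetyl-CoA through mevalonate, isoprenoid units, squalene and lanosterol, and they make fatty acids from the same acetyl-CoA through malonyl-CoA. Both branches are controlled by the SREBP transcription factors, which SCAP escorts out of the endoplasmic reticulum when membrane sterol is low and which INSIG proteins retain there when sterol is plentiful. Maturing red cells need cholesterol and phospholipid for their membrane, and the fetal liver in which they mature also holds hepatoblasts and macrophages with an active lipid metabolism of their own.

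Total counts ran from 28356401 to 44016809 per library, and the lowest count of any measured member in any library was 64. Levels are CPM, the read count set against the TMM-scaled size of its library, and all 33 measured members exceeded 1 CPM in all 4 libraries. Adar itself had 67.1 and 101.6 CPM in the KO-labelled libraries, against 50.9 and 46.9 CPM in the controls, with a log2 fold change of 0.79 ± 0.25 (SE, in edgeR adjusted p = 0.377). The level of Adar therefore goes against the label, although counts per gene do not show the loss of single exons, and every direction below is one between libraries labelled knockout and libraries labelled wild type. The Y-linked gene Eif2s3y went against the labelled sex in 3 of the 4 libraries. It had 105.8 and 0 CPM in KO-labelled replicates 1 and 2, against 72.2 and 79.6 CPM in the controls. By this gene KO-labelled replicate 2 alone was female, so replicate and sex cannot be told apart between the KO-labelled libraries. The part of sex in the members' values was not tested. The 12 erythroid markers were all measured, and summed to 72920 and 73995 CPM in the KO-labelled libraries, against 103990 and 69180 CPM in the controls. A few markers weigh most in these sums, as 1 marker alone had 33347 CPM in KO-labelled replicate 1. The log2 fold change was below 0 for 9 of the 12 and above 0 for 3, with a median of -0.22.

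No member of either branch passed the test across all genes, which 0.103% of all genes passed. A count of 0 members does not set them apart from that share. In the sterol branch 12 of 17 enzymes, and in the fatty acid branch 5 of 10 genes, read lower in both KO-labelled libraries than in both controls. The design asks what Adar deletion does to the transcripts of fetal erythroid cells. With p-values adjusted by Benjamini-Hochberg across the whole table, edgeR's quasi-likelihood test put 11 of 10716 genes under an adjusted p of 0.05 (0.103%), and 0 of the 33 members were among them. All 11 of these genes were higher in the KO-labelled libraries. DESeq2 called 0 members, beside 3.49% of all genes, the likelihood ratio test 0, beside 3.26%, and limma-voom 0, beside 0.0747%. These shares join both directions. Genes called lower were 0.196% of all genes in DESeq2, 0.168% in the likelihood ratio test and 0 in limma-voom. At an unadjusted p under 0.05 in edgeR's quasi-likelihood test, 5 members were lower (Scd1, Acaca, Nsdhl, Idi1 and Hsd17b7), beside 2.08% of all genes, and 0 members were higher, beside 9.82% of all genes. Both KO-labelled libraries lay below both controls for 19 of 33 members (57.6%), beside 26.7% of all genes. Both lay above both controls for Fads1 and Tm7sf2 only, 2 of 33 members (6.06%), beside 27.4% of all genes. The log2 fold change was below 0 for 22 of 33 members, beside 50% of all genes.

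The branches had like medians, and the sensing genes had a median on the other side of 0. The median log2 fold change was -0.31 over the 17 sterol enzymes, -0.31 over the 10 fatty acid genes and 0.23 over the 6 genes of sensing and transfer, beside 0.00 over all genes. Taken library by library against the control mean, the sterol branch had a median log2 difference of -0.27 in KO-labelled replicate 1 and -0.24 in replicate 2, against 0.03 and -0.03 in the controls. The fatty acid branch had -0.41 in KO-labelled replicate 1 and -0.28 in replicate 2, against -0.11 and 0.10 in the controls. The sensing genes had 0.37 in KO-labelled replicate 1 and 0.02 in replicate 2, against 0.05 and -0.05 in the controls. The control mean holds both controls, so for each gene their values lie on either side of 0 by construction. The control medians are thus no measure of spread, and whether a KO-labelled library stood apart cannot be judged from them. The medians given here describe the lists, and the difference between the branches was not tested.

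**Figure D1:**
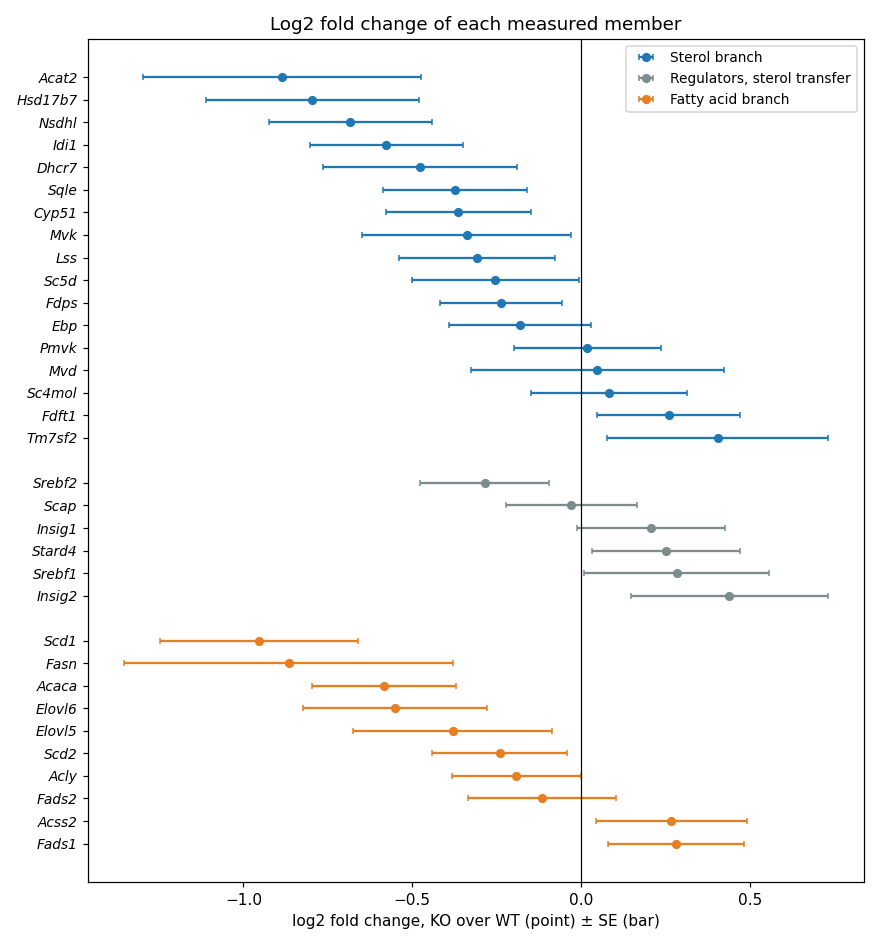
Log2 fold change, KO over WT, of each of the 33 measured members, with the sterol branch at the top, the genes of sensing and sterol transfer in the middle and the fatty acid branch at the bottom. Points are edgeR estimates and bars are ± SE. In the sterol branch 12 of 17 points lie left of 0, in the fatty acid branch 8 of 10, and among the sensing genes 2 of 6.

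The promoter windows of 4 members are shown: Nsdhl, Idi1 and Hsd17b7 are the sterol enzymes with an unadjusted p under 0.05, and Fasn is the fatty acid enzyme whose KO-labelled libraries differed most. Windows of 300 bases, from 250 before to 50 after each gene's start, came from RefSeq on GRCm38.p6 and matched 26 of the 33 members by symbol. Positions are given on NCBIM37, where each printed window had 1 exact match on its chromosome. Gene starts are RefSeq's, and the Fasn window lies before the gene's start in the NCBIM37 annotation used for its position. The Nsdhl window lies at chrX:70163610-70163909, plus strand. The Idi1 window lies at chr13:8884602-8884901, plus strand. The Hsd17b7 window lies at chr1:171899287-171899586, minus strand. The Fasn window lies at chr11:120685812-120686111, minus strand. Each sequence reads 5′ to 3′ along the gene's own strand, and capitals mark CCAAT on either strand (read as ATTGG on the other) and CACGTG.
Nsdhl: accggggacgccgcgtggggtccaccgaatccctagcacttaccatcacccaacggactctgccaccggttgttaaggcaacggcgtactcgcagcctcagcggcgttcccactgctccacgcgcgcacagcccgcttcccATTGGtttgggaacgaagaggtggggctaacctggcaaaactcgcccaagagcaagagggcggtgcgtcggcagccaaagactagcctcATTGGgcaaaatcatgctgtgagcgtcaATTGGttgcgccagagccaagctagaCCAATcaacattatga
Idi1: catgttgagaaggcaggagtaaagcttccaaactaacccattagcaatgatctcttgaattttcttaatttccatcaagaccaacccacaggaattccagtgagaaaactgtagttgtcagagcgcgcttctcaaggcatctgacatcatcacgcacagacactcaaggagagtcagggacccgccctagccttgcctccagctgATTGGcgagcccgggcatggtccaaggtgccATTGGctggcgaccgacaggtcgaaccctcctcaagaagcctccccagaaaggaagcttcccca
Hsd17b7: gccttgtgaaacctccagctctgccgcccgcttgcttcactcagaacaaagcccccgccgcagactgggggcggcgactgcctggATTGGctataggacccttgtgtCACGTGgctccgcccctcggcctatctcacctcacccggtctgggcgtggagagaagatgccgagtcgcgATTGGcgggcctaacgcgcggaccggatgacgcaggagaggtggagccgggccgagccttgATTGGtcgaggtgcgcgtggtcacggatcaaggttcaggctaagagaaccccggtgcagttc
Fasn: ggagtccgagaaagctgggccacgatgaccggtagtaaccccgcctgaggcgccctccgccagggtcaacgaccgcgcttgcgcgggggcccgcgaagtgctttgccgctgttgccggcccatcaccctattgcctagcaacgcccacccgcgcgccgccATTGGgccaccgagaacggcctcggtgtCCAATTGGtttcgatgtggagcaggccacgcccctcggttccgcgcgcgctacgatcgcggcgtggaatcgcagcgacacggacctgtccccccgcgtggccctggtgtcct
The Nsdhl window holds CCAAT 4 times, the Idi1 window 2 times, the Hsd17b7 window 3 times and the Fasn window 3 times. A pair of the matches in the Fasn window overlap, 1 on each strand. CACGTG, a letter sequence that the SREBP family can bind, is found 1 time in the Hsd17b7 window.

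Across members the CCAAT box, which the factor NF-Y binds, was found for as many members as the GC box. Some members have several windows, and a gene was counted if any of its windows held the sequence. The table genes were counted in the same way, but the share of all windows counts each window singly and is not a like comparison. On either strand CCAAT was found for 21 of 26 members with a window (80.8%), beside 44% of the 7287 table genes with a window. Of all 32851 windows 37.4% held it. CCAAT was found for 13 of 14 sterol branch genes (92.9%), 4 of 7 fatty acid genes (57.1%) and 4 of 5 sensing genes. CACGTG was found for 6 of 26 members (23.1%), beside 12.6% of the table genes and 7.15% of all windows. GGGCGG, a GC box, was found for 21 of 26 members (80.8%), beside 70.9% of the table genes and 35.7% of all windows. By branch the GC box was found for 13 of 14 sterol genes (92.9%), 3 of 7 fatty acid genes (42.9%) and 5 of 5 sensing genes. A higher share in the sterol branch than in the fatty acid branch was thus not particular to CCAAT. TCACNCCAC, a spelling of the sterol regulatory element, was found for 0 of 26 members, beside 1.44% of the table genes and 1.24% of all windows. The Acaca window holds none of these letter sequences. That window lies at chr11:84008690-84008989, inside the gene as annotated on NCBIM37, where the gene starts at 83943174. The sequence at that annotated start was therefore not searched. These are matches of letters within the windows, and binding was not measured.

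The sterol branch begins with the condensation of acetyl-CoA and runs through mevalonate to isopentenyl diphosphate. Acat2, the cytosolic thiolase of the first step (chr17:13135756-13153613, minus strand, NCBIM37), had 9.56 and 22.7 CPM in the KO-labelled libraries, against 30.6 and 29 CPM in the controls. Its means were 16.1 ± 9.26 CPM in KO-labelled libraries and 29.8 ± 1.18 CPM in controls (SD, n = 2 each), and its log2 fold change was -0.89 ± 0.41 (SE, in edgeR adjusted p = 0.433). The groups do not overlap, but KO-labelled replicate 2 held 2.37 times the level of replicate 1 and lay much nearer to the controls. Mvk, mevalonate kinase, had 3.29 and 3.81 CPM in the KO-labelled libraries, against 4.6 and 4.39 CPM in the controls, which do not overlap, with a log2 fold change of -0.34 ± 0.31 (SE, in edgeR adjusted p = 0.584). The next kinase and the decarboxylase overlapped: Pmvk had 22.5 and 21 CPM in the KO-labelled libraries, against 19.5 and 23.5 CPM in the controls, and a log2 fold change of 0.02 ± 0.22 (SE). Mvd, the lowest count in the set, had 3.23 and 2.36 CPM in the KO-labelled libraries, against 2.32 and 3.06 CPM in the controls, and a log2 fold change of 0.05 ± 0.37 (SE). Without library scaling the sign of both turns, to -0.056 for Pmvk and -0.035 for Mvd.

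Isomerisation, prenyl joining and the path to squalene follow. Idi1, the isopentenyl diphosphate isomerase (chr13:8884852-8891641, plus strand), had 33.4 and 45.5 CPM in the KO-labelled libraries, against 55.7 and 62 CPM in the controls. Its means were 39.5 ± 8.6 CPM in KO-labelled libraries and 58.8 ± 4.46 CPM in controls (SD, n = 2 each), and its log2 fold change was -0.58 ± 0.23 (SE, in edgeR adjusted p = 0.419). The groups do not overlap, and the unadjusted p was 0.0435. Fdps, farnesyl diphosphate synthase, had 72.2 and 63.4 CPM in the KO-labelled libraries, against 79.3 and 80.5 CPM in the controls. Its ranges do not overlap either, with a log2 fold change of -0.24 ± 0.18 (SE, in edgeR adjusted p = 0.524). Fdft1, squalene synthase, which commits farnesyl units to sterols, went the other way in value, with 84 and 66.9 CPM in the KO-labelled libraries, against 69.1 and 57.1 CPM in the controls. The control with the higher Fdft1 level lay between the KO-labelled libraries, and the log2 fold change was 0.26 ± 0.21 (SE, in edgeR adjusted p = 0.549). Exons of Fdft1 share 769 bases with Ctsb on the opposite strand, and the strand of counting is not stated in the sources used here, so the Fdft1 count is uncertain. Ctsb had 902 and 1091 CPM in the KO-labelled libraries, against 1603 and 1055 CPM in the controls.

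Oxidation of squalene and closure of its rings give lanosterol. Sqle, squalene epoxidase, had 36.4 and 47.8 CPM in the KO-labelled libraries, against 56.2 and 53 CPM in the controls, with a log2 fold change of -0.37 ± 0.21 (SE, in edgeR adjusted p = 0.456). The KO-labelled libraries stayed below the controls, with replicate 2 near the lower control. Lss, lanosterol synthase, had 15.7 and 14.6 CPM in the KO-labelled libraries, against 16.6 and 20.8 CPM in the controls, and a log2 fold change of -0.31 ± 0.23 (SE, in edgeR adjusted p = 0.52). Its KO-labelled libraries were close together and below both controls. Exons of Lss share 381 bases with 4930483K19Rik on the opposite strand. Cyp51, the lanosterol demethylase, had 13.4 and 13.8 CPM in the KO-labelled libraries, against 16.9 and 18.1 CPM in the controls, and its log2 fold change was -0.36 ± 0.22 (SE, in edgeR adjusted p = 0.462). The libraries of each group were near each other, with means of 13.6 ± 0.251 CPM in KO-labelled libraries and 17.5 ± 0.881 CPM in controls (SD, n = 2 each).

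The steps after demethylation trim lanosterol to cholesterol, and a pair of enzymes that act in removing its methyl groups both read below the controls. Nsdhl, the decarboxylating sterol dehydrogenase (chrX:70163896-70203853, plus strand), had 11.6 and 13.7 CPM in the KO-labelled libraries, against 22.6 and 18.2 CPM in the controls. Its means were 12.7 ± 1.46 CPM in KO-labelled libraries and 20.4 ± 3.13 CPM in controls (SD, n = 2 each). The log2 fold change was -0.68 ± 0.24 (SE, in edgeR adjusted p = 0.399), and the unadjusted p was 0.0299. Hsd17b7, the keto-sterol reductase that follows (chr1:171879666-171899372, minus strand), had 3.46 and 4.82 CPM in the KO-labelled libraries, against 7.65 and 6.76 CPM in the controls. Its means were 4.14 ± 0.964 CPM in KO-labelled libraries and 7.21 ± 0.629 CPM in controls (SD, n = 2 each), with a log2 fold change of -0.80 ± 0.32 (SE, in edgeR adjusted p = 0.419) and an unadjusted p of 0.0458. For both genes the KO-labelled libraries lay below the controls without overlap. Sc4mol, the oxidase that starts the same demethylation, had 11.4 and 10.5 CPM in the KO-labelled libraries, against 10.7 and 10.1 CPM in the controls, and these ranges overlap at a log2 fold change of 0.08 ± 0.23 (SE).

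The other late enzymes isomerise, desaturate and reduce the ring system. Ebp, a sterol isomerase, had 19.6 and 22.1 CPM in the KO-labelled libraries, against 24.7 and 22.6 CPM in the controls, a log2 fold change of -0.18 ± 0.21 (SE). Sc5d, a sterol desaturase, had 7.6 and 7.8 CPM in the KO-labelled libraries, against 8.88 and 9.49 CPM in the controls, a log2 fold change of -0.25 ± 0.25 (SE). Dhcr7, a reductase at the end of the pathway, had 4.73 and 6.01 CPM in the KO-labelled libraries, against 7.14 and 7.82 CPM in the controls, with a log2 fold change of -0.48 ± 0.29 (SE, in edgeR adjusted p = 0.466). All of these had both KO-labelled libraries below both controls. Tm7sf2, a sterol reductase whose role is shared with Lbr, was the 1 enzyme of the branch with both KO-labelled libraries above both controls. It had 4.44 and 3.58 CPM in the KO-labelled libraries, against 3.12 and 2.94 CPM in the controls, and a log2 fold change of 0.40 ± 0.33 (SE, in edgeR adjusted p = 0.548). Exons of Tm7sf2 share 532 bases with 1110014N23Rik on the same strand, so its count is uncertain.

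**Figure D2:**
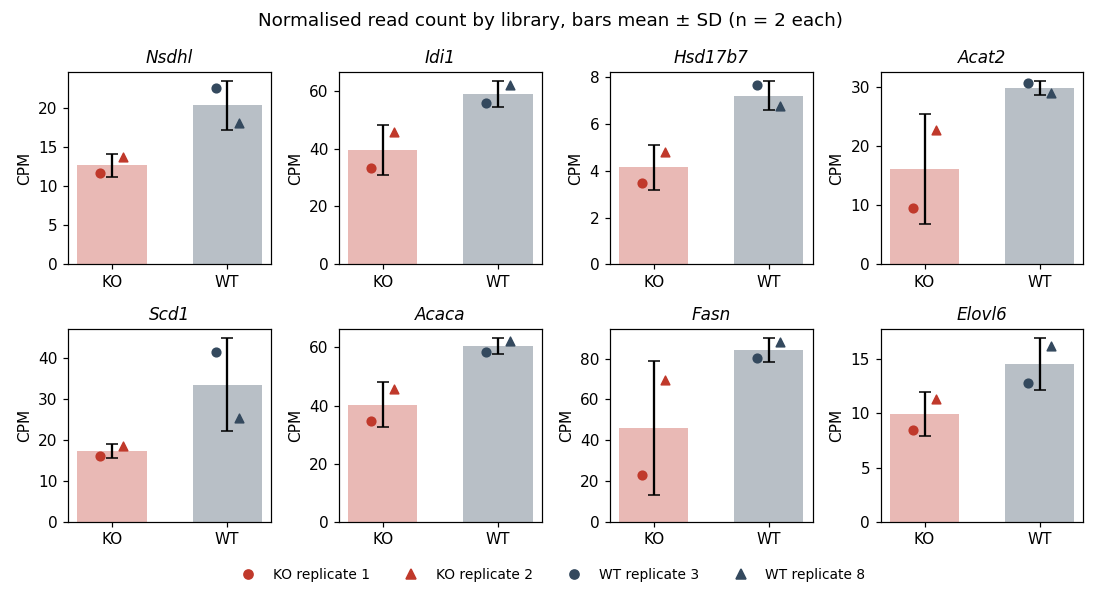
Normalised read count in CPM of 4 sterol enzymes (top row) and 4 fatty acid enzymes (bottom row), KO left of WT in each panel. Circles and triangles are single libraries, bars are means and whiskers ± SD of 2 libraries. In every panel both KO points lie below both WT points, and for Acat2 and Fasn the KO points lie far apart.

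Among the genes of sterol sensing and transfer the transcription factors went in opposite directions in value. Srebf2, the SREBP that mainly drives sterol genes, had 142 and 138 CPM in the KO-labelled libraries, against 185 and 156 CPM in the controls, without overlap. This gave a log2 fold change of -0.29 ± 0.19 (SE, in edgeR adjusted p = 0.486). Srebf1, which mainly drives fatty acid genes, had 139.8 and 84.9 CPM in the KO-labelled libraries, against 88.6 and 96 CPM in the controls. One KO-labelled library lay above both controls and the other below both, and the log2 fold change was 0.28 ± 0.27 (SE, in edgeR adjusted p = 0.603). Without KO-labelled replicate 1 the value for Srebf1 was -0.12 (adjusted p = 0.936 by edgeR), and without replicate 2 it was 0.59 (adjusted p = 0.0317 by edgeR). Exons of Srebf1 share 109 bases with Rai1 on the opposite strand.

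The genes of proteins that hold or carry the SREBPs, and of a sterol carrier, had values close to the controls or overlapping them. Scap, the escort protein, had 28.8 and 29.2 CPM in the KO-labelled libraries, against 29.9 and 29.3 CPM in the controls, and a log2 fold change of -0.03 ± 0.19 (SE). Its 4 values span the narrowest range of the 6 genes, so its separation of the groups is small. Exons of Scap share 985 bases with 5830462I19Rik on the opposite strand, so the Scap count is uncertain. Insig1, the retention protein whose own gene is an SREBP target, had 49.4 and 41.3 CPM in the KO-labelled libraries, against 43.9 and 34.7 CPM in the controls. The ranges overlap, with a log2 fold change of 0.21 ± 0.22 (SE). Insig2, its relative, had 22 and 13.9 CPM in the KO-labelled libraries, against 14 and 12.5 CPM in the controls, and KO-labelled replicate 1 alone stood above the others. The estimated log2 fold change was 0.44 ± 0.29 (SE, in edgeR adjusted p = 0.486). Stard4, a cytosolic sterol carrier, had 74.3 and 59.2 CPM in the KO-labelled libraries, against 49.8 and 62.3 CPM in the controls, which overlap, with a log2 fold change of 0.25 ± 0.22 (SE).

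The fatty acid branch starts with the supply of acetyl-CoA. Acly, ATP citrate lyase, had 88.1 and 99.4 CPM in the KO-labelled libraries, against 98.7 and 115 CPM in the controls, and its ranges overlap narrowly at a log2 fold change of -0.19 ± 0.19 (SE). Acss2, which activates acetate, had 89 and 64.8 CPM in the KO-labelled libraries, against 59.9 and 67.9 CPM in the controls, and its groups overlap at a log2 fold change of 0.27 ± 0.22 (SE). Exons of Acss2 share 229 bases with Gss, 335 with 4930471I20Rik and 197 with Ggt7, all on the opposite strand. Acaca, the carboxylase that makes malonyl-CoA and sets the pace of the branch (chr11:83943174-84215153, plus strand), had 34.8 and 45.8 CPM in the KO-labelled libraries, against 58.4 and 62.3 CPM in the controls. Its means were 40.3 ± 7.77 CPM in KO-labelled libraries and 60.4 ± 2.73 CPM in controls (SD, n = 2 each). Between groups the log2 fold change was -0.58 ± 0.21 (SE, in edgeR adjusted p = 0.413) with an unadjusted p of 0.0346, and the groups do not overlap.

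Fasn, the synthase that builds palmitate (chr11:120667254-120685492, minus strand), had the largest ratio between the KO-labelled libraries of any member. It had 22.9 and 69.3 CPM in the KO-labelled libraries, against 80.1 and 88.2 CPM in the controls. Its means were 46.1 ± 32.8 CPM in KO-labelled libraries and 84.2 ± 5.69 CPM in controls (SD, n = 2 each), and its log2 fold change was -0.87 ± 0.49 (SE, in edgeR adjusted p = 0.454). KO-labelled replicate 2 held 3.02 times the level of replicate 1, although both lay below both controls. Without replicate 1 the log2 fold change was -0.28 (adjusted p = 0.787 by edgeR), and without replicate 2 it was -1.89 (adjusted p = 0.00022 by edgeR). Acat2 behaved in the same manner, at -0.40 (adjusted p = 0.658 by edgeR) without replicate 1 and -1.65 (adjusted p = 0.000832 by edgeR) without replicate 2. The size of both differences was thus decided by 1 library.

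Desaturases and elongases give the chains their final form. Scd1, the stearoyl-CoA desaturase that makes oleate (chr19:44468941-44482199, minus strand), had the lowest unadjusted p of the members, 0.0177. It had 16 and 18.4 CPM in the KO-labelled libraries, against 41.4 and 25.4 CPM in the controls. Its means were 17.2 ± 1.64 CPM in KO-labelled libraries and 33.4 ± 11.3 CPM in controls (SD, n = 2 each), and its log2 fold change was -0.95 ± 0.29 (SE, in edgeR adjusted p = 0.363). The KO-labelled libraries were close together and the controls were apart, so that without control replicate 3 the value was -0.56 and without control replicate 8 it was -1.27. Scd2, whose gene lies 87.587 kb from Scd1 on chromosome 19, had 175 and 157 CPM in the KO-labelled libraries, against 177 and 214 CPM in the controls, with a log2 fold change of -0.24 ± 0.20 (SE, in edgeR adjusted p = 0.552). The exons of the pair share 145 sequences of 50 bases, 3.03% of those in Scd1, and how shared reads were counted is not stated in the sources used here.

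Elovl6, which lengthens palmitate, had 8.48 and 11.4 CPM in the KO-labelled libraries, against 12.8 and 16.2 CPM in the controls, without overlap. Its log2 fold change was -0.55 ± 0.27 (SE, in edgeR adjusted p = 0.434). Elovl5, which lengthens polyunsaturated chains, had 7.6 and 9.41 CPM in the KO-labelled libraries, against 9.03 and 13.1 CPM in the controls, and its groups overlap at a log2 fold change of -0.38 ± 0.29 (SE). Fads1 and Fads2, the front-end desaturases of polyunsaturated chains, lie 81.385 kb apart on chromosome 19 and had values on either side of 0. Fads1 had 95.7 and 117 CPM in the KO-labelled libraries, against 93.7 and 81.5 CPM in the controls, above both controls in both KO-labelled libraries, with a log2 fold change of 0.28 ± 0.20 (SE, in edgeR adjusted p = 0.507). Fads2 had 37.2 and 30.2 CPM in the KO-labelled libraries, against 33.5 and 39.4 CPM in the controls, overlapping, with a log2 fold change of -0.12 ± 0.22 (SE).

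Levels were compared between genes as CPM per kilobase of exon, averaged over the 4 libraries. The length joins all annotated exons of a gene, 1233 bases for Fdps and 3484 for Tm7sf2. It can exceed the length of the transcripts present, so the order depends in part on the annotation. Fdps was the most abundant member at 59.9 CPM per kilobase, followed by Scd2 at 33.2, Srebf2 at 31.1 and Fads1 at 28.1 CPM per kilobase. Tm7sf2 was the least abundant at 1.01 CPM per kilobase, next to Hsd17b7 at 1.11 CPM per kilobase. By this measure Fdps stood 59.3 times above Tm7sf2, whose count is uncertain. The enzymes of 1 pathway thus differed far more in level from each other than any did between groups. Between the related desaturases Scd2 stood at 33.2 and Scd1 at 5.23 CPM per kilobase, and between the SREBP genes Srebf2 stood at 31.1 and Srebf1 at 18.2 CPM per kilobase.

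**Figure D3:**
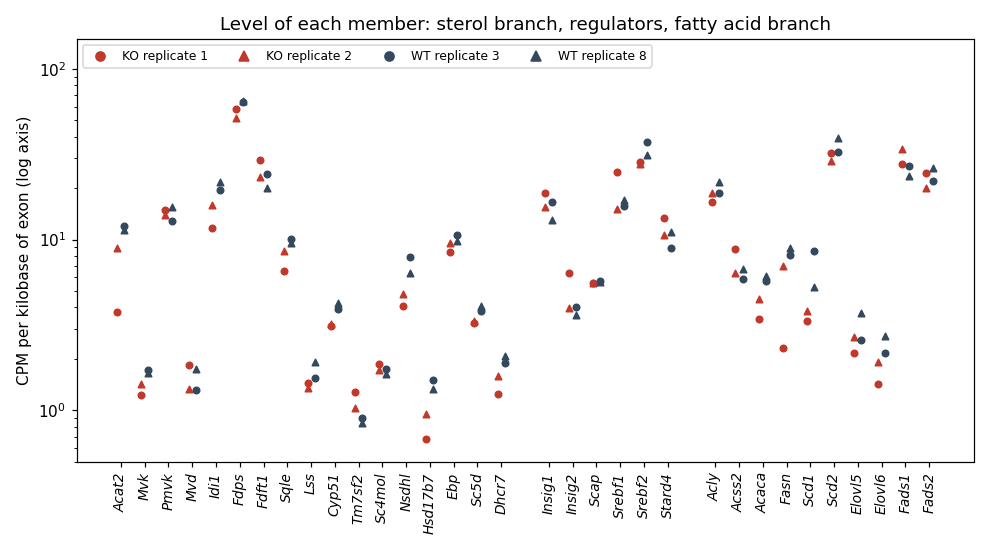
Level of each measured member in CPM per kilobase of exon on a log axis, with the sterol branch on the left, the sensing and transfer genes in the middle and the fatty acid branch on the right. Each point is 1 library, KO left of WT. Fdps stands highest, with a mean of 59.9 over the 4 libraries, and Tm7sf2 lowest, with a mean of 1.01.

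Where both KO-labelled libraries lay below both controls, replicate 1 was mostly the farther from the controls, among the members and across all genes. Among the 19 members with both KO-labelled libraries below both controls, replicate 1 was the lower of the pair for 15 (78.9%), beside 89.4% of all genes with that order. Leaving out KO-labelled replicate 2 left 10 of 33 members called at an adjusted p under 0.05 by edgeR (30.3%), beside 32.6% of all genes in that fit. Of these, 8 were lower (Fasn, Acat2, Idi1, Acaca, Nsdhl, Hsd17b7, Sqle and Elovl6), beside 15.3% of all genes, and Insig2 and Srebf1 were higher, beside 17.3% of all genes. Leaving out KO-labelled replicate 1 left 0 members called, beside 1.33% of all genes, leaving out control replicate 3 left 0, beside 0.383%, and leaving out control replicate 8 left 0, beside 0.252%. The lone KO-labelled library in such a fit is assumed to vary like the controls. The fatty acid median was -0.10 without control replicate 8, against -0.47 without control replicate 3.

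**Figure D4:**
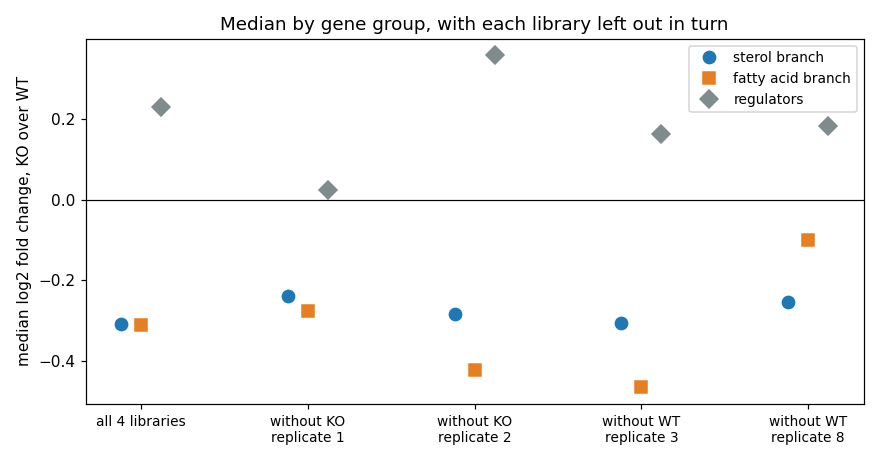
Median log2 fold change, KO over WT, of the 17 sterol enzymes, the 10 fatty acid genes and the 6 sensing and transfer genes, with all 4 libraries and with each left out in turn. The sterol median stays between -0.31 and -0.24 when a library is left out, the fatty acid median lies between -0.47 and -0.10, and the sensing median between 0.02 and 0.36.

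Markers of other cells in the fetal liver also differed between libraries. In such bulk samples fewer cells of a type and less RNA per cell cannot be told apart. The 11 measured of 16 hepatoblast markers summed to 73.8 and 88.2 CPM in the KO-labelled libraries, against 147.5 and 68.5 CPM in the controls, so control replicate 3 stood highest. All 11 had a log2 fold change below 0, with a median of -0.57, and 0 of the 11 had an unadjusted p under 0.05. The 12 measured of 14 macrophage markers summed to 54.1 and 32.1 CPM in the KO-labelled libraries, against 81.6 and 44.6 CPM in the controls. The lysozyme gene Lyz2, which neutrophils express as well, made up most of the sum in KO-labelled replicate 1, with 43.1 and 8.32 CPM in the KO-labelled libraries, against 9.68 and 10.9 CPM in the controls. The sums of all 12 overlap between the groups. Lyz2 was left out because it was the highest of the markers in KO-labelled replicate 1, a choice made from these values. The other 11 macrophage markers summed to 10.99 and 23.8 CPM in the KO-labelled libraries, against 71.9 and 33.6 CPM in the controls. These sums do not overlap, which depends on that choice. The median log2 fold change of all 12 was -1.71. At an unadjusted p under 0.05, 7 of 12 were lower (58.3%), beside 2.08% of all genes. The log2 fold change farthest from 0 was that of Cd5l, which had 0.163 and 0.959 CPM in the KO-labelled libraries, against 13.6 and 4.99 CPM in the controls, and Lyz2 was the 1 marker with a positive log2 fold change, 1.32 ± 0.70 (SE). The 9 measured of 11 megakaryocyte and neutrophil markers summed to 361 and 105 CPM in the KO-labelled libraries, against 74.0 and 101 CPM in the controls, so KO-labelled replicate 1 stood highest. Their log2 fold change was above 0 for 8 of 9, with a median of 1.35. No measured marker was at 0 in any library. Without control replicate 3 the sterol median log2 fold change was -0.31 and the fatty acid median -0.47. Without control replicate 8 the sterol median was -0.25 and the fatty acid median -0.10. The part of these cell types in the members' values was not tested.

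Genes around the core pathway were read from further lists, and none of their members passed the adjusted test in edgeR. Among 10 measured genes of sterol side steps and cofactors, 0 were lower at an unadjusted p under 0.05, beside 2.08% of all genes. In the same list 1 was higher (10%), beside 9.82% of all genes, and the median log2 fold change was 0.00. Tmem97, a sterol-responsive membrane protein, had 15.9 and 17.2 CPM in the KO-labelled libraries, against 20.3 and 27 CPM in the controls, with a log2 fold change of -0.51 ± 0.24 (SE, in edgeR adjusted p = 0.433). Cyb5r3, a reductase that supplies electrons to sterol oxidation, had 151 and 329.8 CPM in the KO-labelled libraries, against 382 and 324 CPM in the controls, with overlap and a log2 fold change of -0.55 ± 0.38 (SE, in edgeR adjusted p = 0.497). Among 7 measured genes that process or degrade SREBP pathway proteins, 0 were lower and 0 higher at an unadjusted p under 0.05, with a median of 0.13. Mbtps1, a protease that cleaves SREBPs, had 110.3 and 99.9 CPM in the KO-labelled libraries, against 95.1 and 84.8 CPM in the controls, without overlap and with a log2 fold change of 0.23 ± 0.18 (SE). Ubxn8 had 10.3 and 14 CPM in the KO-labelled libraries, against 16.3 and 13.7 CPM in the controls, with overlap and a log2 fold change of -0.30 ± 0.26 (SE).

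Sterol uptake, efflux and storage held the largest values of any lipid list. At an unadjusted p under 0.05, 5 of its 15 measured genes were higher (33.3%), beside 9.82% of all genes, and 0 were lower, beside 2.08%. Its median log2 fold change was 0.04, and the list was split in direction. Both KO-labelled libraries lay below both controls for 7 of the 15 (46.7%), beside 26.7% of all genes. Both lay above both controls for 6 (40%), beside 27.4% of all genes. Soat2, which esterifies cholesterol for storage, had 91.5 and 38.1 CPM in the KO-labelled libraries, against 7.9 and 8.92 CPM in the controls. Both KO-labelled libraries lay far above the controls, replicate 1 farther. This gave a log2 fold change of 2.94 ± 0.44 (SE, in edgeR adjusted p = 0.12). It was called by DESeq2 (adjusted p = 1.64e-09) and by edgeR with either KO-labelled library left out. Abcg1, a sterol exporter, had 12 and 7.75 CPM in the KO-labelled libraries, against 1.67 and 3.13 CPM in the controls, with a log2 fold change of 2.03 ± 0.43 (SE, in edgeR adjusted p = 0.25), and DESeq2 called it (adjusted p = 0.00122). Npc1, which moves cholesterol out of lysosomes, had 34.9 and 29.5 CPM in the KO-labelled libraries, against 21.1 and 17.6 CPM in the controls, with a log2 fold change of 0.73 ± 0.22 (SE, in edgeR adjusted p = 0.362). Lipa, the lysosomal lipase that frees it, and Mylip, a ubiquitin ligase of lipoprotein receptors, were the other 2 of the 5. Their log2 fold changes were 0.63 ± 0.25 (SE) for Lipa and 0.53 ± 0.21 (SE) for Mylip.

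The other fatty acid genes lay nearer 0. Of 18 measured, 0 were lower and 0 higher at an unadjusted p under 0.05, with a median log2 fold change of -0.14. Acsl3, an acyl-CoA synthetase, had 16 and 17.8 CPM in the KO-labelled libraries, against 25 and 23 CPM in the controls. Its groups do not overlap, and its log2 fold change was -0.51 ± 0.21 (SE, in edgeR adjusted p = 0.43). Oxsm, of mitochondrial fatty acid synthesis, had 7.08 and 12.8 CPM in the KO-labelled libraries, against 16.2 and 16.9 CPM in the controls, with a log2 fold change of -0.73 ± 0.33 (SE, in edgeR adjusted p = 0.433). Ptpla, a dehydratase of chain elongation, had 8.16 and 15.4 CPM in the KO-labelled libraries, against 20.3 and 19.3 CPM in the controls, with a log2 fold change of -0.74 ± 0.34 (SE, in edgeR adjusted p = 0.433).

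**Figure D5:**
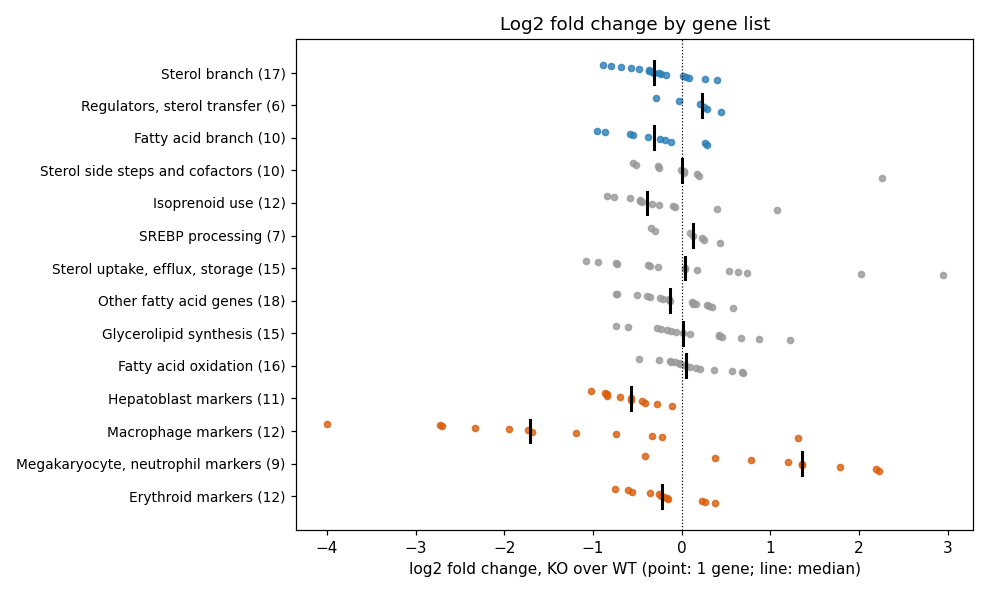
Log2 fold change, KO over WT, of each measured gene in the lists of the pathway (top), its surroundings (middle) and cell type markers (bottom), with the number measured beside each name. Each point is 1 gene and each line the median of its list. The macrophage median stands at -1.71, the sterol and fatty acid medians at -0.31 each, and Soat2 is the rightmost point at 2.94.

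Of the 33 members, 0 had an adjusted p under 0.05 in the authors' deposited table, and the smallest was 0.442. The sign of all 33 log2 fold changes was the same in the authors' deposited table, whose values are coded wild type minus knockout and were turned. Both sets of values come from the same 4 libraries, so the like signs are not an independent check.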

How the data were processed

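RNA-seq libraries of sorted fetal liver erythroid cells were compared, 2 labelled knockout against 2 controls, grouped by title. The authors deposited raw counts per gene, and, in a comparison table, their log2 fold change (a ratio on a log scale) with its p-value and adjusted p-value. Per the submitters' processing notes the tools include Trimmomatic 0.30, TopHat2 2.0.8, HTSeq and edgeR with NCBIM37; their roles are not given. All 10716 genes exceeded 1 CPM in at least 2 libraries. The whole table was fitted in edgeR 4.0.16 under R 4.3.3 (filterByExpr, which removed 0 genes, TMM scaling, robust two-sided quasi-likelihood F test, 2 residual degrees of freedom, Benjamini-Hochberg threshold 0.05), and the common biological coefficient of variation was 25.6%. The script was tested on simulated data. Standard errors are the log2 fold change over the square root of F. The alternatives were RLE and no scaling, other filters, DESeq2 1.42.0, limma-voom (limma 3.58.1), the likelihood ratio test, robust=FALSE, legacy=FALSE and leaving out each library. Exon lengths and positions came from GENCODE on NCBIM37. The text names every member and, from each further lipid list, the 3 genes with the lowest p-values, some of which are not reported here; genes named beyond these were chosen after their values were seen. The members and lists were chosen with earlier results of these data known.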

Additional observations from a re-analysis of the deposited data

How the results depend on the processing

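Against 11 genes called, no library scaling gave 87, DESeq2 374 and the likelihood ratio test 349, and leaving out 1 library gave 27 to 3492, the highest without KO-labelled replicate 2. Members called stayed at 0 under all 9 alternatives with all libraries, and ran from 0 to 10 with a library left out. Members at an unadjusted p under 0.05 ran from 0 to 13. The sterol median was -0.38 without library scaling, where the median of all genes moved to -0.07, and -0.31 to -0.24 with a library left out. The fatty acid median ran from -0.47 to -0.10 and the sensing median from 0.02 to 0.36. Without library scaling Pmvk turned to -0.056 and Mvd to -0.035. With a library left out 4 genes changed sign, with ranges of -0.11 to 0.15 for Pmvk, -0.20 to 0.26 for Mvd, -0.12 to 0.59 for Srebf1 and -0.27 to 0.017 for Fads2. Of 486 comparisons of 54 genes with all libraries, 477 kept direction and side of the threshold, 7 passed it and 2 reversed. The cause of these shifts was not tested. No paired analysis was possible because the groups share no replicate numbers. Depth set no member near 0, since the lowest count was 64 (Mvd, control replicate 3).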

Other observations

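Isoprenoid use, which draws on the same mevalonate, read mostly below the controls. Of 12 measured genes 8 had both KO-labelled libraries below both controls (66.7%), beside 26.7% of all genes, with a median log2 fold change of -0.39, and 0 passed the adjusted test. Ggps1, which makes geranylgeranyl diphosphate, was the 1 gene of 12 higher at an unadjusted p under 0.05 (8.33%), beside 9.82% of all genes, with 63.5 and 30.0 CPM in the KO-labelled libraries, against 21.1 and 23.1 CPM in the controls. This gave a log2 fold change of 1.08 ± 0.37 (SE, in edgeR adjusted p = 0.395). Icmt, which methylates prenylated proteins, had 22.9 and 33.5 CPM in the KO-labelled libraries, against 44.3 and 40.4 CPM in the controls, with a log2 fold change of -0.59 ± 0.25 (SE, in edgeR adjusted p = 0.433). Zmpste24, a protease of prenylated lamin, had 25.2 and 30.8 CPM in the KO-labelled libraries, against 39.5 and 38.3 CPM in the controls, with a log2 fold change of -0.47 ± 0.21 (SE, in edgeR adjusted p = 0.433).

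Glycerolipid synthesis had a median log2 fold change of 0.01 over 15 measured genes, with 1 lower (6.67%) and 2 higher (13.3%) at an unadjusted p under 0.05, beside 2.08% lower and 9.82% higher of all genes. Cept1, which joins head groups to diacylglycerol, had 35.4 and 24 CPM in the KO-labelled libraries, against 15.5 and 17 CPM in the controls, with a log2 fold change of 0.87 ± 0.26 (SE, in edgeR adjusted p = 0.359). Pcyt2, of phosphatidylethanolamine synthesis, had 172 and 76.1 CPM in the KO-labelled libraries, against 48.1 and 58.6 CPM in the controls, with a log2 fold change of 1.22 ± 0.39 (SE, in edgeR adjusted p = 0.385). The lower gene was Plin2, a lipid droplet protein, which had 127 and 137 CPM in the KO-labelled libraries, against 279 and 164 CPM in the controls, with a log2 fold change of -0.75 ± 0.29 (SE, in edgeR adjusted p = 0.419).

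Fatty acid oxidation, which runs opposite to synthesis, had a median of 0.05 over 16 measured genes, with 0 lower and 3 higher (18.8%) at an unadjusted p under 0.05, beside 2.08% lower and 9.82% higher of all genes. Both KO-labelled libraries lay above both controls for 7 of the 16 (43.8%), beside 27.4% of all genes. Etfdh, which passes electrons from oxidation to ubiquinone, had 96.7 and 87.3 CPM in the KO-labelled libraries, against 58.9 and 55.7 CPM in the controls, with a log2 fold change of 0.68 ± 0.18 (SE, in edgeR adjusted p = 0.325). Cpt1a, the carnitine transferase that admits fatty acids to mitochondria, had 29.3 and 27.7 CPM in the KO-labelled libraries, against 19.4 and 19 CPM in the controls, with a log2 fold change of 0.57 ± 0.20 (SE, in edgeR adjusted p = 0.4). Slc25a20, the carnitine carrier, had 16 and 17.4 CPM in the KO-labelled libraries, against 8.48 and 12.2 CPM in the controls, with a log2 fold change of 0.69 ± 0.27 (SE, in edgeR adjusted p = 0.419). None of these 3, named for their low p-values, passed the adjusted test.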
